A study of Homo sapiens with 6 samples.

Results

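The classical cadherins and the catenins that bind them were followed in 2 derivatives of SKOV3.ip1, a human ovarian carcinoma cell line, as every probe set that the array annotation ties to 1 gene alone among CDH1, CDH2, CDH3, CDH4, CDH6, CDH11, CTNNB1, CTNNA1, CTNND1 and CTNNAL1. This gave 8 of the 10 genes, out of 19775 measured in all, with 24 of the 54613 non-control probe sets. CDH6 had 6 probe sets, CTNNA1 5, CDH11 4, CTNNB1 3, CDH1 and CDH2 2 each, and CDH3 and CTNNAL1 1 each. For CTNND1, which encodes p120-catenin, all 4 annotated probe sets were also assigned to the read-through gene TMX2-CTNND1, so no value is named for it, and no probe set in the annotation used here carried CDH4.

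Both lines had been stably transfected with a vector for PEA-15, an adaptor with a death effector domain whose partners include ERK and FADD. In the S116D line the encoded form has aspartic acid in place of serine, which mimics phosphorylation, and in the S116A line it has alanine, which cannot be phosphorylated. The titles name Ser116 for both, but for the S116D line the sample characteristics name Ser104 as well and the treatment text names Ser16. Total RNA of 3 samples per line was hybridised to Affymetrix HG-U133 Plus arrays. The labels do not say whether the 3 samples were separate cultures or whether a line was 1 clone, so the p-values rest on a spread among arrays that may be technical only. Neither parental nor empty-vector cells were analysed here. All differences below are S116D minus S116A on the log2 scale.

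Classical cadherins are calcium-dependent adhesion receptors that join neighbouring cells at the adherens junction. Their cytoplasmic tails bind β-catenin and p120-catenin, and β-catenin in turn binds α-catenin, which contacts actin. β-catenin outside junctions is marked for destruction by a complex that holds APC, axin and GSK3, and when spared it acts with TCF/LEF factors in the nucleus. In carcinomas, the balance between E-cadherin, the epithelial form, and N-cadherin, the neural and mesenchymal form, is a common description of epithelial and mesenchymal states. Ovarian surface epithelium is unusual among epithelia in that it typically carries N-cadherin.

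The array medians lay between 7.862 and 7.893 log2 units, and arrays of one line correlated at r of 0.9951 to 0.9979 over all probe sets, against 0.9866 to 0.9902 between lines. A second principal component, with 20.31% of the variance, set S116D 1, S116A 1 and S116A 2 apart from S116D 2, S116D 3 and S116A 3, a division that no label explains. Of the markers of ovarian carcinoma epithelium, 8 of 9 were read above the median signal of all probe sets (7.888), MUC16 being the exception. Also above it were 1 of 3 leukocyte, 3 of 5 fibroblast, 3 of 5 endothelial and 2 of 4 mesothelial markers. A signal above the median therefore does not by itself show that a transcript was present. The mean level of the 9 epithelial markers ranged from 11.32 to 11.6 in S116D and from 11.83 to 12.13 in S116A. KRT7 (2 of 4 probe sets called), KRT8, KRT18, KRT19 (1 of 2) and EPCAM were called lower in S116D. MUC16 (-0.13), PAX8 (0.05), MUC1 (0.03) and ERBB2 (0.39) were not called. Markers of leukocytes (3 measured) and fibroblasts (5) had no call. The endothelial marker KDR and the mesothelial marker UPK3B were called lower. KDR was at percentile 14.3 of the mean signals and may be at background in both lines. Mean marker levels were 7.8 to 7.913 in S116D and 7.909 to 7.994 in S116A for endothelium (5 genes). For mesothelium (4) they were 8.222 to 8.386 in S116D and 8.494 to 8.719 in S116A. The part of these markers in the results below was not tested.

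Both E-cadherin and N-cadherin transcripts were lower in the S116D line, β-catenin transcript was higher, and no α-catenin or P-cadherin probe set was called. In such bulk RNA, fewer cells carrying a transcript and less of it per cell cannot be told apart. Of the 24 probe sets, 5 were called at a limma adjusted p under 0.05 over all probe sets, or 20.8%, beside 8.55% of all 54613. CTNNB1 gave the 2 higher calls and CDH1 and CDH2 the 3 lower ones, where 4.36% of all probe sets were called higher and 4.19% lower. Calls were more frequent among bright probe sets, at 13.6% above the median signal and 3.5% at or below it. The members counted 4 of 17 above the median and 1 of 7 at or below it. The median difference of the 24 probe sets was 0.02, and 0.003 for all probe sets, while the median size regardless of sign was 0.125 for the members and 0.074 for all. Values of the lines did not overlap on 8 of the 24 probe sets, where 24% of all probe sets had no overlap. At least 2-fold differences were called on 3 member probe sets, against 1.1% of all. Probe sets of 1 gene are not separate evidence. On the brightest probe set of each gene, 3 of 8 members were called, beside 11% of 19775 genes. The members were chosen with earlier results of these data known, so the excess of calls may be partly built in.

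**Figure D1:**
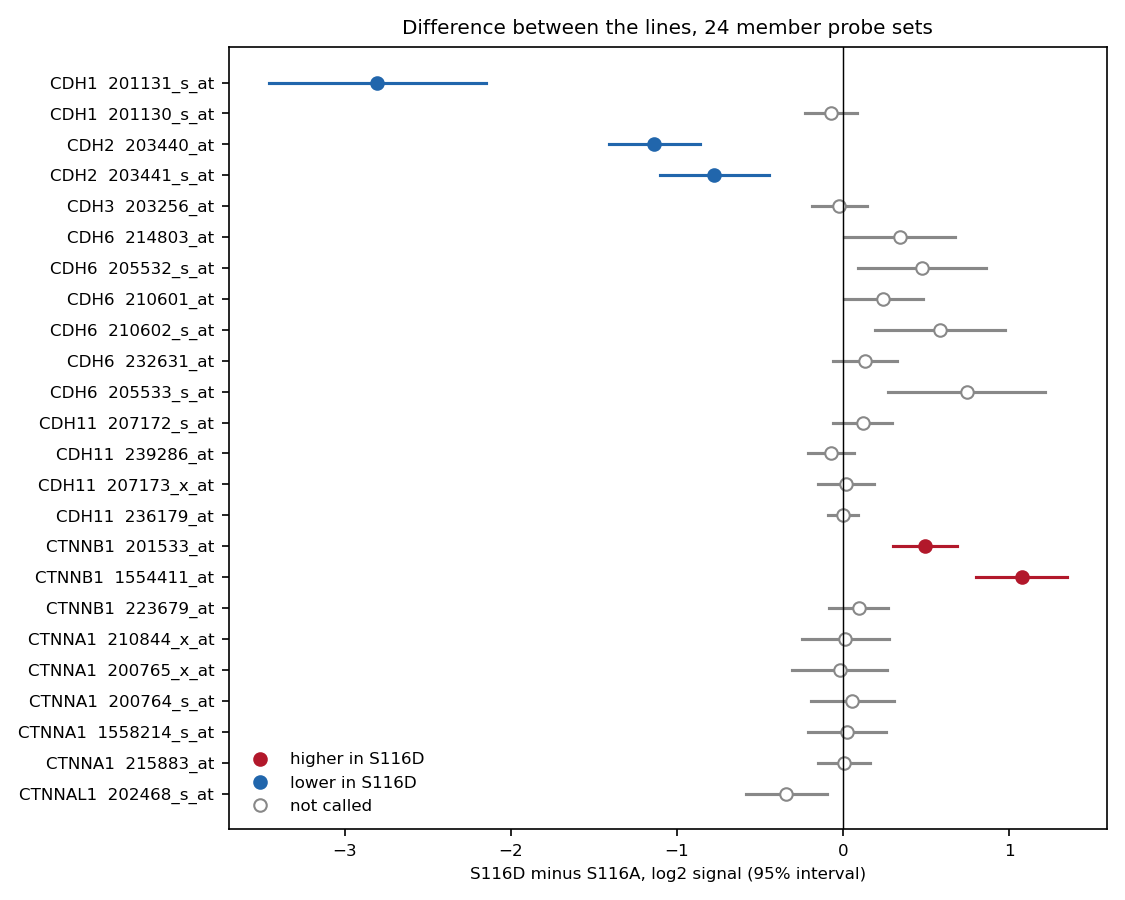
Difference between the lines (S116D minus S116A, log2 signal) for each of the 24 member probe sets, with limma's 95% interval, 3 arrays per line. Blue points (CDH1 on 1 probe set, CDH2 on both) were called lower and red points (CTNNB1 on 2 of 3) higher in S116D; open grey points were not called.

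Upstream sequence is shown for the genes that were called on more than 1 probe set, CDH2 and CTNNB1, so that the stretch before each transcript start can be read beside the values. Each is the 250 bases before a RefSeq gene start in GRCh38.p14, read 5′ to 3′ on the gene's strand, with the GC box GGGCGG or its reverse complement CCGCCC in capitals.
CDH2, minus strand, chr18:28177131-28177380: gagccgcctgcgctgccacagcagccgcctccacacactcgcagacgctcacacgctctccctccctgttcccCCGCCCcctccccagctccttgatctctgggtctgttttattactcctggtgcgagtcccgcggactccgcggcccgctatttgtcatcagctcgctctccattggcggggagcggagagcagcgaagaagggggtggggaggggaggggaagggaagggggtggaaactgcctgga
CTNNB1, plus strand, chr3:41199255-41199504: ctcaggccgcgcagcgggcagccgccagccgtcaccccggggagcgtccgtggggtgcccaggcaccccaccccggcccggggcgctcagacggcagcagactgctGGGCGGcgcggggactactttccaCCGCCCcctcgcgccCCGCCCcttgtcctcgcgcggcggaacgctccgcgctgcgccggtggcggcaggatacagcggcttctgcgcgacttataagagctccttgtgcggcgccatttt
The CTNNB1 window held 3 GC boxes and this CDH2 window 1. Among members that were not called, the CTNNA1 windows held 9, 4, 0 and 0 and the CTNNAL1 window 7. GC boxes were thus no particular trait of the called genes. At least 1 GC box was present in 42.6% of 35116 such windows and at least 3 in 13.9%. The E-box CACCTG (or CAGGTG), the sequence that ZEB and SNAIL repressors recognise, was absent from both windows and present in 17.5% of all. The reference lists another CDH2 start, with neither motif in its window. It holds no window for CDH1, so neither motif could be read for that gene. These matches describe the letters only.

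CDH1 encodes E-cadherin, the type I cadherin of epithelia. Its brighter probe set, 201131_s_at, read 6.20, 6.13 and 5.87 in the S116D samples, against 9.46, 9.02 and 8.12 in the S116A samples. Every S116D array lay at least 1.92 log2 units below the lowest S116A array, and S116A 3 was the lowest of its line. The means were 6.06 ± 0.18 in S116D and 8.87 ± 0.68 in S116A (SD, n = 3 each). That is a difference of -2.81 ± 0.285 (SE), or 6.99-fold lower (limma adjusted p = 0.00077). This difference ranked 19 from the most negative among the 54613 probe sets.
The other CDH1 probe set, 201130_s_at, read 5.83, 5.76 and 5.58 in S116D and 5.79, 5.78 and 5.81 in S116A. The lines overlapped there, and the difference of -0.07 had a 95% interval from -0.23 to 0.0842 (limma adjusted p = 0.69). That probe set was at percentile 11.9 of the mean signals and the brighter one at percentile 40.8, below the median. The table holds no detection calls, so it cannot be read from these values whether CDH1 was detected in S116D at all or whether the dimmer probe set read the transcript in either line. The 6.99-fold difference is therefore not exact: if the S116D signal is background, the change in transcript could be larger. The CDH1 difference was -3.04 in the set of arrays holding S116D 1, S116A 1 and S116A 2, and -2.13 in the set holding the other arrays.

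CDH2 encodes N-cadherin and was lower on both of its probe sets. On 203440_at the values were 10.74, 10.64 and 11.06 in S116D, against 11.89, 11.87 and 12.08 in S116A. The lines were separated by 0.809 log2 units, and within each the highest was replicate 3. The means of 10.81 ± 0.22 in S116D and 11.95 ± 0.12 in S116A (SD, n = 3 each) gave a difference of -1.14 ± 0.12 (SE), or 2.2-fold lower (limma adjusted p = 0.00091).
The second probe set, 203441_s_at, read 8.86, 8.71 and 9.29 in S116D and 9.74, 9.63 and 9.82 in S116A. It differed by -0.77 (95% interval -1.1 to -0.448, 1.71-fold lower, limma adjusted p = 0.012), again with no overlap. Without S116A 1 this second call was lost, at a difference of -0.77 and a limma adjusted p of 0.051. CDH2 is a type I cadherin of neural and mesenchymal cells, so both the epithelial and the mesenchymal form of the family were called lower in the same line. Within the 2 sets of arrays the brighter CDH2 probe set differed by -1.14 and -1.24.

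CDH3, the gene for P-cadherin, directly precedes CDH1 on chromosome 16, with 0 protein-coding genes between them in RefSeq order. Its single probe set, 203256_at, read 8.87, 9.01 and 8.93 in S116D, against 8.97, 8.97 and 8.95 in S116A. The lines overlapped and the difference was -0.02 (95% interval -0.187 to 0.142, limma adjusted p = 0.93), an interval whose far end is 1.14-fold. CDH11, a type II cadherin known from osteoblasts and other mesenchymal cells, lies on the same chromosome with 77 protein-coding genes between it and CDH1. Its 4 probe sets were all below the median signal. The brightest of them, 207172_s_at, read 7.70, 7.51 and 7.53 in S116D and 7.47, 7.55 and 7.36 in S116A. Differences over the 4 ranged from -0.07 to 0.12 with intervals between -0.211 and 0.298, all lines overlapped, and the lowest limma adjusted p was 0.51.

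CDH6, or K-cadherin, is a type II cadherin of fetal kidney that ovarian carcinomas often carry. All 6 of its probe sets had a positive difference, from 0.13 to 0.75, and none was called (limma adjusted p 0.067 to 0.50). The brightest, 214803_at, read 11.80, 11.23 and 11.41 in S116D, against 11.01, 11.29 and 11.10 in S116A. S116D 2 fell inside the S116A range there, and it was the lowest S116D array on all 6 probe sets, while S116D 1 was the highest of all arrays on 5. The mean was 11.48 ± 0.29 in S116D and 11.14 ± 0.14 in S116A (SD, n = 3 each), a difference of 0.34 (95% interval 0.00784 to 0.676, limma adjusted p = 0.24).
The largest difference was on 205533_s_at, at 9.40, 8.52 and 8.97 in S116D and 8.14, 8.48 and 8.04 in S116A. The lines did not overlap by 0.0397 log2 units, and the difference of 0.75 (95% interval 0.269 to 1.22) had a limma adjusted p of 0.067. The 6 probe sets read the same RNA samples and are not separate evidence of one another. Calls for CDH6 depended on S116D 2 and on the sets of arrays. Without S116D 2, 205532_s_at (0.70, limma adjusted p = 0.0084), 210602_s_at (0.79, adjusted p = 0.013) and 205533_s_at (0.97, adjusted p = 0.022) were called higher. With a block for the 2 sets of arrays, these and 214803_at were called, at adjusted p from 0.0024 to 0.043. Those sets were taken from the second principal component of these same values, so the block is not a recorded batch. With the replicate number as a block 210602_s_at (adjusted p = 0.013) and 205533_s_at (adjusted p = 0.043) were called.

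**Figure D2:**
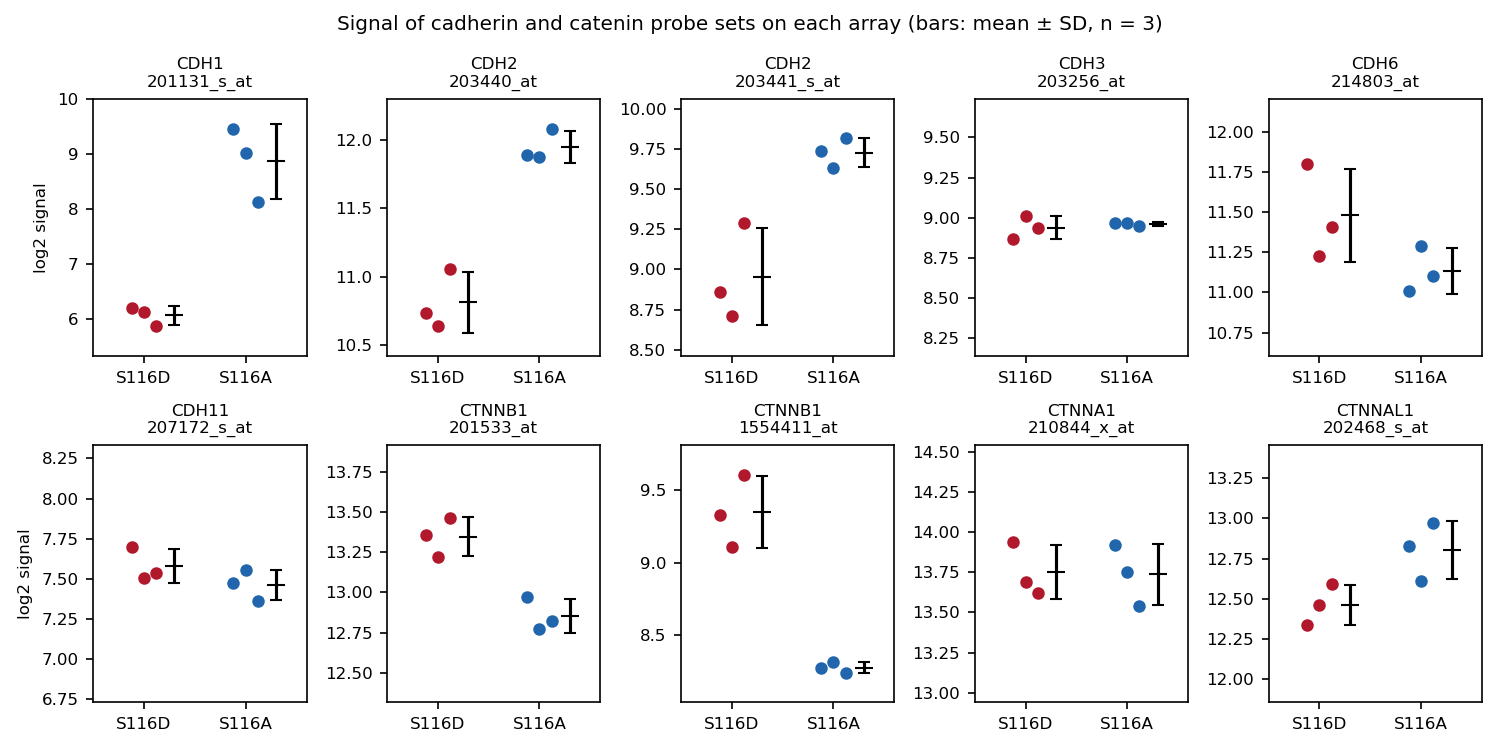
Log2 signal on each array for the brightest probe set of each measured member and for the other called probe sets, S116D in red and S116A in blue, with the mean and SD of 3 arrays in black; each panel has its own axis range, which does not start at 0. The lines are apart for CDH1, CDH2 and CTNNB1, overlap for CDH3, CDH6, CDH11 and CTNNA1, and are 0.0198 log2 units apart for CTNNAL1.

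CTNNB1 encodes β-catenin, the tail partner of the cadherins and the transducer of canonical Wnt signals. The brightest probe set, 201533_at, read 13.36, 13.22 and 13.46 in S116D, against 12.97, 12.77 and 12.82 in S116A. All S116D arrays were above all S116A arrays, by at least 0.256. The difference was 0.50 ± 0.0845 (SE), or 1.41-fold higher (limma adjusted p = 0.0087).
On 1554411_at the S116D samples read 9.33, 9.11 and 9.61 and the S116A samples 8.27, 8.31 and 8.24. The gap between the lines was 0.80, and the S116A values spanned 0.072. Means of 9.35 ± 0.25 in S116D and 8.27 ± 0.036 in S116A (SD, n = 3 each) gave 1.08 ± 0.12 (SE), or 2.11-fold higher (limma adjusted p = 0.0012). The remaining probe set, 223679_at, which was below the median signal, differed by 0.10 with overlapping lines (95% interval -0.0815 to 0.272, limma adjusted p = 0.62). The intervals of the 2 called CTNNB1 probe sets, 0.302 to 0.689 and 0.803 to 1.35, did not overlap each other. Within the 2 sets of arrays the brightest probe set differed by 0.49 and 0.52, and 1554411_at by 1.04 and 1.12.

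CTNNA1 encodes αE-catenin, which ties the cadherin and β-catenin complex to actin. The brightest of its 5 probe sets, 210844_x_at, read 13.94, 13.69 and 13.62 in S116D and 13.92, 13.75 and 13.54 in S116A. In both lines replicate 1 was the highest, and the lines overlapped almost entirely. Over the 5 probe sets the differences ran from -0.02 to 0.06, with 95% intervals between -0.305 and 0.305 and limma adjusted p of at least 0.88. The far end of the widest of these intervals is 1.24-fold. CTNNAL1 encodes α-catulin, a relative of α-catenin. Its probe set, 202468_s_at, read 12.34, 12.46 and 12.59 in S116D, against 12.83, 12.61 and 12.97 in S116A. The lines were 0.0198 apart, and the difference of -0.34 (95% interval -0.587 to -0.0972, 1.27-fold lower) was not called (limma adjusted p = 0.099). It was called lower with the replicate number as a block (adjusted p = 0.021) and with a block for the 2 sets of arrays (-0.42, adjusted p = 0.0037). The latter block was drawn from these same values.

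**Figure D3:**
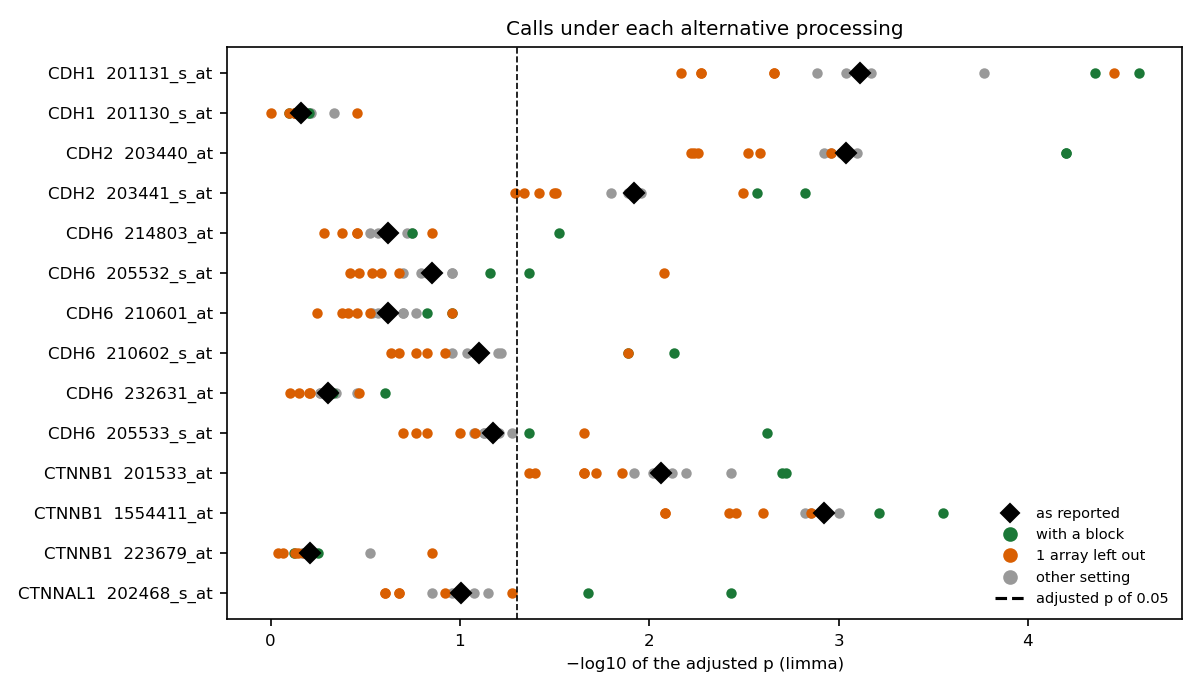
Limma adjusted p, as −log10, of each probe set of CDH1, CDH2, CDH6, CTNNB1 and CTNNAL1 as reported (black diamond) and under the alternative settings (dots); values right of the dashed line are below 0.05. The brighter CDH1 and CDH2 probe sets and 2 CTNNB1 probe sets stay right of the line, and CDH6 and CTNNAL1 cross it under some settings.

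The genes whose 6 array values ran most like those of a member were read by the root mean square distance between profiles with each gene's own mean subtracted, over the brightest probe sets of 19775 genes. For CDH1 these were PRSS12 (0.154 log2 units), SORBS2 (0.291) and PTGES (0.295). PRSS12, a secreted serine protease gene, averaged 6.75 in S116D and 9.51 in S116A. For CDH2 they were ANKRD13C (0.101), NIPAL3 (0.105) and HSBP1 (0.108), with differences from -1.26 to -1.04. For CTNNB1 they were ABI1 (0.0416), ZNF25 (0.0424) and ZNF222 (0.0473), with differences from 0.44 to 0.50. Arrays of only 2 lines give many genes nearly the same profile, and the distance says nothing beyond that likeness.

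Around the members, 123 measured genes of 7 lists of cadherin relatives and junction partners were read on their brightest probe sets. In these lists 22 genes were called lower (17.9%) and 3 higher (2.44%), beside 4.82% lower and 6.13% higher among 19775 genes. The lists were chosen with earlier results of these data known, so the excess of lower calls may be partly built in. In either direction 20.3% of the list genes were called, beside 11% of all genes on their brightest probe sets. Many list genes were also above the median signal. There 13.6% of all probe sets were called in either direction, against 3.5% at or below it. The median difference was -0.07 over the lists and 0.006 over all genes. Only 12 of these 25 calls remained whichever array was left out. The number called lower was 13 without S116D 3, and 11 when S116D 2, S116A 1 or S116A 2 was left out. The genes lost at least once are marked below. FAT3, CDHR1, PARD3, ENAH, PTPRF, FER, ESRP1 and CSNK1A1 count as uncalled here, though each was called on 1 dimmer probe set.

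The other type I and type II cadherins gave no call among 12 measured genes, 5 of them above the median signal, with a median difference of 0.02. CDH22 (0.04, limma adjusted p = 0.85) and CDH24 (0.01, adjusted p = 0.99) had the highest signals. Among 20 cadherins outside the classical groups, FAT4, a very large cadherin that pairs with DCHS1, was called lower (-0.50, limma adjusted p = 0.0044) from a signal below the median. It was the only call among the 20, beside 4.82% called lower among all genes. FAT1 (-0.26) and CLSTN1 (-0.29) were not called.

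Among 9 relatives of the catenins and p120, 3 were called lower and none higher. PKP2, a plakophilin of desmosomes, read 9.63, 9.24 and 9.39 in S116D, against 11.06, 11.02 and 10.52 in S116A. Its lines did not overlap, and it was 2.73-fold lower (-1.45 ± 0.158, SE; limma adjusted p = 0.0011), on 1 of its 2 probe sets. PKP4, a p120 relative of junctions, fell by 0.57 (adjusted p = 0.0033, on 1 of 5 probe sets). PKP3 fell by 0.53 (adjusted p = 0.038, on 1 of 2), a call that was lost when any of 4 arrays was left out. JUP, or γ-catenin, is the closest relative of β-catenin and can take its place on cadherin tails. It read 10.51, 9.29 and 9.35 in S116D and 11.34, 11.17 and 9.97 in S116A. The lines overlapped because S116A 3 lay below S116D 1, and the difference of -1.10 (95% interval -2.04 to -0.165) was not called (limma adjusted p = 0.17). CTNNA3, the gene for αT-catenin, was not called either (-0.04, adjusted p = 0.89).

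Of 19 actin linkers and nectin partners, 4 were lower and 1 higher. LIMA1, or EPLIN, which bridges α-catenin and actin filaments, read 12.22, 12.15 and 12.26 in S116D and 13.67, 13.51 and 13.31 in S116A. The lines were 1.05 apart, with S116D 2.44-fold lower (limma adjusted p = 0.00017), and 2 of its 3 probe sets were called. NECTIN3, an immunoglobulin-type adhesion molecule of the same junctions, fell by 0.70 on the brighter of its 2 called probe sets (adjusted p = 0.0017). AJUBA (-0.37, 2 of 4 probe sets called) and VASP (-0.41, 1 of 1) were lower. TJP1, the gene for ZO-1, was higher (0.34, 1 of 2). The calls of these 3 genes were each lost when certain arrays were left out, at adjusted p up to 0.14. Vinculin (VCL, -0.01, adjusted p = 0.98) and ACTN1 (0.36, adjusted p = 0.24) were not called.

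Among 19 genes of cadherin turnover and tail phosphorylation, FYN, a SRC-family kinase gene, was 2.82-fold lower in S116D (-1.49 ± 0.0898, SE; limma adjusted p = 5.5e-05). It read 10.38, 10.22 and 10.39 in S116D, against 11.94, 11.73 and 11.80 in S116A, with no overlap. Of the 5 FYN probe sets, 3 were called. PTPRM, a receptor phosphatase that associates with cadherins, was 1.4-fold higher (adjusted p = 0.004, on 1 of 2 probe sets). ARF6 (1 of 4 probe sets called), PTPN1 (1 of 4) and PTPN14 (2 of 4) were lower by 0.36 to 0.54. Each had a call that was lost when certain arrays were left out. PTPN14 also lost its call with quantile normalization (-0.37, limma adjusted p = 0.051). AP2M1 (-0.23) and HUWE1 (-0.07) were not called.

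Regulators of CDH1 transcription had 9 genes lower and 1 higher of 20, with a median difference of -0.41. ZEB1, a direct repressor of CDH1, was the gene called higher, at 10.79, 10.58 and 10.52 in S116D, against 9.61, 9.77 and 9.92 in S116A. The lines were 0.604 apart and the difference was 0.86 ± 0.108 (SE; limma adjusted p = 0.002), with 3 of 4 probe sets called. EHF, an epithelial ETS factor, read 5.80, 5.95 and 5.87 in S116D and 9.91, 9.82 and 8.58 in S116A. S116A 3 was again the lowest of its line, and EHF was lower in S116D (adjusted p = 3e-04, on 2 of 6 probe sets). Its 11.8-fold difference is not exact either, since S116D read well below the median signal and may be at background.
The called falls included genes known as activators of CDH1 or of epithelial state and genes known as its repressors. OVOL2, which restrains mesenchymal programmes, fell by 0.74 (adjusted p = 0.0038) and KLF4 by 0.65 (adjusted p = 0.021), each on 1 of 2 probe sets. TCF3, whose E2A products repress CDH1, fell by 0.87 (adjusted p = 0.00092), on 1 of 14 probe sets, and CTBP2, a corepressor that ZEB proteins recruit, fell by 0.44 (adjusted p = 0.021, on 5 of 6). The remaining falls were FOXA1 (-1.11, 2 of 2 probe sets called), TWIST1 (-0.63, 1 of 1), TCF4 (-0.56, 7 of 8) and TWIST2 (-0.40, 1 of 2). KLF4, CTBP2 and these 4 lost their calls when certain arrays were left out, at adjusted p up to 0.14. TWIST2 also lost its call with quantile normalization (-0.38, limma adjusted p = 0.053). SNAI2 (-0.61, adjusted p = 0.12) and CTBP1 (-0.40, adjusted p = 0.10) were not called.

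In the β-catenin destruction complex and among its nuclear partners, 1 of 24 genes, GSK3B, was called lower and none higher. Among all 19775 genes 4.82% were called lower and 6.13% higher, so this count is no excess. The median difference of the list was -0.07. GSK3B, the kinase that phosphorylates β-catenin for degradation, read 11.35, 11.38 and 11.24 in S116D, against 11.80, 11.92 and 11.78 in S116A. The lines were 0.402 apart, and it was 1.43-fold lower (limma adjusted p = 0.0053, on 2 of 5 probe sets). CSNK1A1, the priming kinase (0.11, adjusted p = 0.54), and TCF7L2, a nuclear partner (-0.07, adjusted p = 0.78), were not called on their brightest probe sets.

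**Figure D4:**
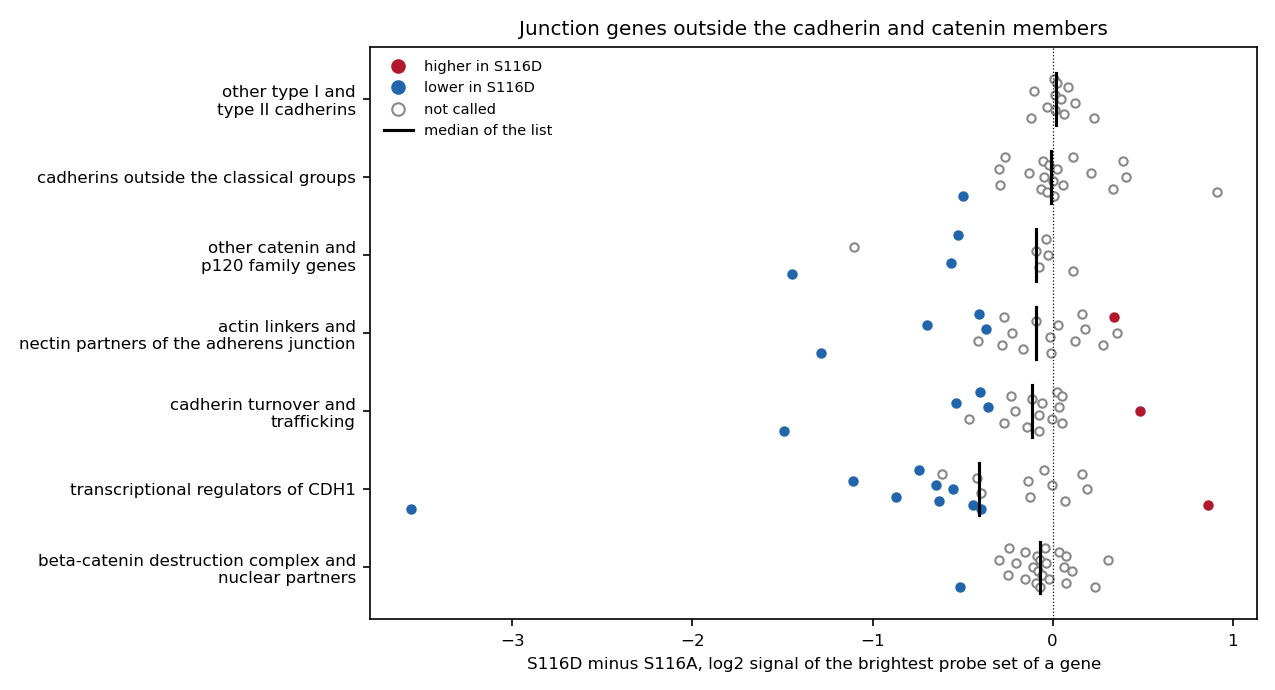
Difference between the lines (S116D minus S116A, log2 signal of the brightest probe set) for 123 junction genes in 7 lists, 3 arrays per line; filled points were called lower (blue) or higher (red) in S116D and black bars mark list medians. The regulators of CDH1 have a median of -0.41, with EHF far to the left and ZEB1 to the right, and the other lists have medians between -0.12 and 0.02.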

How the data were processed

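The data as deposited by the authors give a log2 signal for each of 54675 probe sets on each array. That unit was read from the values, which run from 4.336 to 15.33 with nearly equal array medians. MAS5 and RMA appear in the submitters' processing notes without roles or versions, and no source used here describes other steps. Control probe sets (62) were left out. GEO's platform annotation, with symbols updated through gene identifiers (RefSeq, GRCh38.p14), gave 1 gene for 41091 probe sets, several for 1801 and none for 11721. S116D was compared with S116A in limma 3.58.1 (R 4.3.3), using lmFit and eBayes with trend and no covariate, with Benjamini-Hochberg adjustment over 54613 probe sets at 0.05. The fit was tested on simulated data. A gene in a list was read on its probe set with the highest mean. Signals of different probe sets are not comparable as levels. Precision was limited by 3 arrays per line.

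Members and lists were chosen with earlier results of these data known. All members are described. From each list the rule named up to 6 called genes by smallest p and up to 2 uncalled genes with the highest mean. Settings varied were the scaling (quantile or median), a minimum signal, the trend in eBayes, array weights, a block for the replicate number or for the sets of arrays, the arrays included, and 2 other readings per gene. Pseudocounts planned in case of linear values did not apply. RefSeq upstream windows were found for 5 of the 10 genes.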

Additional observations from a re-analysis of the deposited data

How the results depend on the processing

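Of 305 comparisons of a member probe set with an alternative, 293 kept direction and side of the threshold, or were uncalled both times; 11 were newly called (CDH6 and CTNNAL1, as given above) and 1 lost its call (CDH2 on 203441_s_at). The filter on dim probe sets removed 7 member probe sets, the called CDH1 one among them, so 2 members were called lower there, against 3. The labels do not say whether replicate numbers pair the arrays. Deviations of same-numbered arrays from their line means correlated at 0.45, -0.0401 and 0.442. S116D 1 and S116D 3 correlated best with their own numbers and S116D 2 did not, so a pairing stays unresolved. With the replicate block, 4 member probe sets were called higher, against 2 without it, 8 list genes higher (3 without), and over all probe sets 3580 higher and 3760 lower (2382 and 2290 without). With a block for the 2 sets of arrays the counts were 6 members and 12 list genes higher, and 4080 higher and 4019 lower overall. The 2 sets were taken from the second principal component of these same values, so calls under this block are not independent of the data. Leaving out 1 array gave 2 to 5 members higher, 11 to 25 list genes lower, and 1429 to 2334 higher and 1177 to 2429 lower calls overall; without S116D 2, 5 members were higher. On 1 probe set per gene, or on the median over them, CTNNB1 was called higher and CDH1 and CDH2 lower, as on single probe sets. Why calls moved was not tested. Without detection calls, dim probe sets such as those of CDH11 cannot be called absent.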
